A study of Mus musculus with 12 samples.

Results

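On mouse chromosomes 2 to 19, 785 of 48531 merged open-chromatin regions had a peak in at least 4 more of the 6 control-guide libraries (sgNT) than of the 6 Asxl1-guide libraries (sgB2), which is 1.62% of all the regions and 3.08% of the 25512 regions with a peak in 4 or more libraries. The members were found by merging the peaks of all 12 lists wherever they overlapped by at least 1 bp and counting, for each merged region, the libraries with a peak. The members were chosen by the presence of peaks under the 2 guides, so every difference between sgNT and sgB2 in the members is a description and carries no test; the only tests between guides are of whole lists. The mirrored rule, a peak in at least 4 more sgB2 than sgNT libraries, held for 242 regions, or 0.499% of all regions and 0.949% of those in 4 or more libraries. The whole series held 56992 merged regions on all chromosomes and contigs.

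The libraries were ATAC-seq libraries, in which a transposase cuts and tags accessible DNA, from HoxB8 cells, a mouse bone marrow line immortalised with an estrogen-dependent HoxB8 that stops dividing and differentiates along the myeloid lineage when estrogen is withdrawn. All 12 libraries came from cells kept without estrogen for 48 h, and all carried a guide RNA and a pMICH vector. The 4 groups of 3 libraries were non-targeting guide with empty vector (sgNT/Empty), guide B2 against Asxl1 with empty vector (sgB2/Empty), non-targeting guide with the vector carrying CSF3R T618I (sgNT/T618I) and guide B2 with that vector (sgB2/T618I). A single Asxl1 guide was used, and the labels do not say whether a group was a clone or a pool, nor whether its replicates were separate cultures; a p-value here speaks only of the spread among libraries, which may be technical.

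ASXL1 is a partner of the deubiquitinase BAP1, which removes from histone H2A the ubiquitin that Polycomb complexes place there, and truncating ASXL1 mutations recur in myeloid neoplasms. The T618I form of CSF3R, the receptor for granulocyte colony-stimulating factor, signals without ligand through JAK and STAT proteins and is found in chronic neutrophilic leukemia. Accessible sites away from promoters are often enhancers, bound in myeloid cells by factors such as PU.1, C/EBP and RUNX proteins. A region without a peak is one that the peak caller did not list and is not thereby closed, and in a bulk library fewer cells with an open site and less opening per cell cannot be told apart.

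Some members lay over promoters. In all, 62 of the 785 overlapped a RefSeq promoter window, from 250 bp before to 50 bp after a start site, of 64 protein-coding genes. Of these 62, 10 had a peak in all 6 sgNT libraries and in no sgB2 library, as had 56 of the 785. A region can overlap several windows. Windows numbered 75 at the 785 members, 28 at the 242 mirrored regions and 408 at the 7561 other regions in 4 to 8 libraries. At the 12191 regions in all 12 libraries they numbered 7795. These counts were not tested. The windows shown here are printed 5′ to 3′ from RefSeq on GRCm38.p6, the mm10 assembly. The first 4 are shown because they lie under members found in every sgNT library and no sgB2 library, and the last 2 because they hold the PU.1 motif described with the promoters. Capitals mark matches, on either strand, to the motifs named there.
Mgarp, chr3:51396498-51396797, minus strand: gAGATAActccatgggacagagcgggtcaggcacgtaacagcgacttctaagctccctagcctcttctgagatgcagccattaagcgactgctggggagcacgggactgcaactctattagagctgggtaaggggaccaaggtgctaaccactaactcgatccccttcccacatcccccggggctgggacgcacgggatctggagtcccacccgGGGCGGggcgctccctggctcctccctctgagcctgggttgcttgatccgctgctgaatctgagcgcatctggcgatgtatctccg
Amotl2, chr9:102717554-102717853, plus strand: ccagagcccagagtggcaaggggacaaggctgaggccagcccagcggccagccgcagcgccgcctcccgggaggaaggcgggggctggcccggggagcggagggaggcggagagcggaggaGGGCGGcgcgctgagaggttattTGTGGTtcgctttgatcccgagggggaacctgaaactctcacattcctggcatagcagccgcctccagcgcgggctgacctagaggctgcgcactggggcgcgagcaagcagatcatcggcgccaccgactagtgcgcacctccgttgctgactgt
Angptl2, chr2:33215711-33216010, plus strand: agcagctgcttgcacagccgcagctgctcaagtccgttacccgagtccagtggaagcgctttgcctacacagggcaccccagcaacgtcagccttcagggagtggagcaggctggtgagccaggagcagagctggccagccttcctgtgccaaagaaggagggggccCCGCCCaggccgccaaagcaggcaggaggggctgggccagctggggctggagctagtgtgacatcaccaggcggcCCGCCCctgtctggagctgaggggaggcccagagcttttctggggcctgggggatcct
Ddah2, chr17:35058785-35059084, plus strand: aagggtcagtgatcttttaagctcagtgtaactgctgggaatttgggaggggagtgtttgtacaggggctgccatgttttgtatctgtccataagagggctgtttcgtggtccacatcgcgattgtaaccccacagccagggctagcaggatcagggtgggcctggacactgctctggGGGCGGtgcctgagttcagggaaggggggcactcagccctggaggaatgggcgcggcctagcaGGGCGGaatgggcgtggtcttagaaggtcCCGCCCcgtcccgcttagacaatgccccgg
Selenop, chr15:3270517-3270816, plus strand: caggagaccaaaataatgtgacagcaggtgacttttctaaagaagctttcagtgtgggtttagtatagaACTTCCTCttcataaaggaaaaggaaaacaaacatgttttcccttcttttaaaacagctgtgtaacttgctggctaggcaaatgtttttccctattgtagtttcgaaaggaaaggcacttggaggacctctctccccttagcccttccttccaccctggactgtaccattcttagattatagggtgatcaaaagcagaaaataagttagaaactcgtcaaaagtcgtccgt
Tagap, chr17:7925750-7926049, plus strand: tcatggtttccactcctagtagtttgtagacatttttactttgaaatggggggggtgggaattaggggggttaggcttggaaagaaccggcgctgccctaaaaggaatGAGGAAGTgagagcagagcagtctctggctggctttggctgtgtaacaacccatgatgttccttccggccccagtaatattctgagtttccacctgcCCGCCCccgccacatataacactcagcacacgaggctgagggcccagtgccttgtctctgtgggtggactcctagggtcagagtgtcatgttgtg

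Mgarp encodes a mitochondrial protein, Amotl2 an angiomotin-family protein of cell junctions, Angptl2 a secreted angiopoietin-like protein, Ddah2 an enzyme family member linked to breakdown of methylated arginine, Selenop a secreted selenium carrier and Tagap a GTPase-activating protein of leukocytes. The member over the Amotl2 promoter was covered by peaks over 349, 596 and 505 bp in the 3 sgNT/Empty libraries and 835, 865 and 611 bp in the 3 sgNT/T618I libraries, and over 0 bp in all 6 sgB2 libraries. The Angptl2 member was covered over 257, 703 and 664 bp in sgNT/Empty and 387, 464 and 198 bp in sgNT/T618I. The Ddah2 member was covered over 299, 837 and 952 bp in sgNT/Empty and 562, 1059 and 847 bp in sgNT/T618I. These promoters thus had peaks in every control-guide library and, like the Amotl2 member, 0 bp in every Asxl1-guide library. The Selenop member lacked a peak in sgNT/Empty replicate 1 and was covered over 333 and 640 bp in the other sgNT/Empty libraries and 301, 329 and 352 bp in sgNT/T618I. The Tagap member was covered over 271 and 292 bp in sgNT/Empty replicates 2 and 3 and over 387 and 350 bp in sgNT/T618I replicates 1 and 2, and had no peak elsewhere.

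The remaining promoters under members found in 6 sgNT and 0 sgB2 libraries were those of AU041133, Dgkh, a diacylglycerol kinase, Nr1h3, which encodes the oxysterol receptor LXR-alpha, Crim1, Htr1b, a serotonin receptor, and the window shared by the divergent genes Ccdc148 and Pkp4. The Crim1 member was covered over 1056, 1062 and 1612 bp in sgNT/Empty and 1276, 1157 and 999 bp in sgNT/T618I. The Nr1h3 member was covered over 248, 644 and 651 bp in sgNT/Empty and 297, 482 and 318 bp in sgNT/T618I. Both had 0 bp in every sgB2 library.

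The difference in libraries was mostly the smallest that the rule admits. Of the 785 members, 252 had a peak in 4 sgNT and 0 sgB2 libraries, 104 in 5 and 0, 202 in 5 and 1, 112 in 6 and 2, 59 in 6 and 1, and 56 in 6 and 0 (0.22% of the regions in 4 or more libraries). No sgB2 library had a peak in 412 members. The difference was exactly 4 in 566 members, and 1617 further regions fell 1 library short of the rule with a difference of 3.

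**Figure D1:**
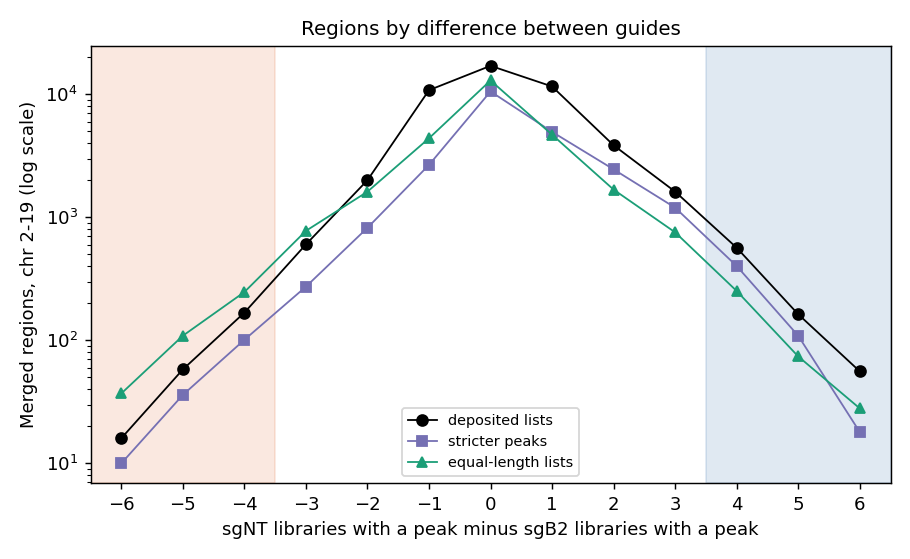
Number of merged regions on chromosomes 2 to 19 (log axis) by the number of sgNT libraries with a peak minus the number of sgB2 libraries with a peak, for the deposited lists, for peaks with a −log10 q of at least 5 and for lists cut to an equal length. In the shaded right part the deposited lists hold 785 regions and in the shaded left part 242; with equal-length lists the 2 parts hold 354 and 393.

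The excess over the mirrored set was not found in lists cut to one length. The authors' lists held 16837, 24122 and 26960 peaks on chromosomes 2 to 19 in sgNT/Empty, 25978, 23690 and 26903 in sgNT/T618I, 17977, 21974 and 22790 in sgB2/Empty, and 22145, 28936 and 20984 in sgB2/T618I. When each list was cut to its 16837 peaks of highest −log10 p and merged again, 354 regions fulfilled the rule and 393 the mirrored rule, so the order of the 2 counts turned. The cut takes away the weakest peaks of every list but the shortest, so it changes length and peak strength together. With only peaks of −log10 q of at least 5, the counts were 529 and 147. Of the 785 members, 165 kept a difference of at least 4 in the equal-length lists and 183 had no peak left. More sgNT than sgB2 libraries were left in 587 members and more sgB2 libraries in 3. The cut only takes peaks away, and the members were chosen for more sgNT libraries, so 587 against 3 follows largely from that choice. Of the 56 members found in 6 sgNT and 0 sgB2 libraries, 25 still had a difference of at least 4 in the equal-length lists and 10 with the stricter peaks.

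One control library stood apart. The first sgNT/Empty library had the shortest list of all and a peak in 353 of the 785 members, against 697 and 748 in the other sgNT/Empty libraries and 721, 672 and 709 in sgNT/T618I. It was the only sgNT library without a peak in 219 of the 306 members found in exactly 5 sgNT libraries. Without it the rule, kept as a difference in shares of libraries, gave 958 regions and the mirrored rule 159. The sgB2/Empty libraries had a peak in 24, 65 and 101 members and the sgB2/T618I libraries in 56, 201 and 38. The 201 came from the longest list of the series, sgB2/T618I replicate 2, which held the single sgB2 peak in 123 of the 261 members with exactly 1. Within each guide the library with the shortest list thus had the fewest members with a peak. The longest sgB2 list still held fewer members than the shortest sgNT list, but the rule itself favours that order.

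**Figure D2:**
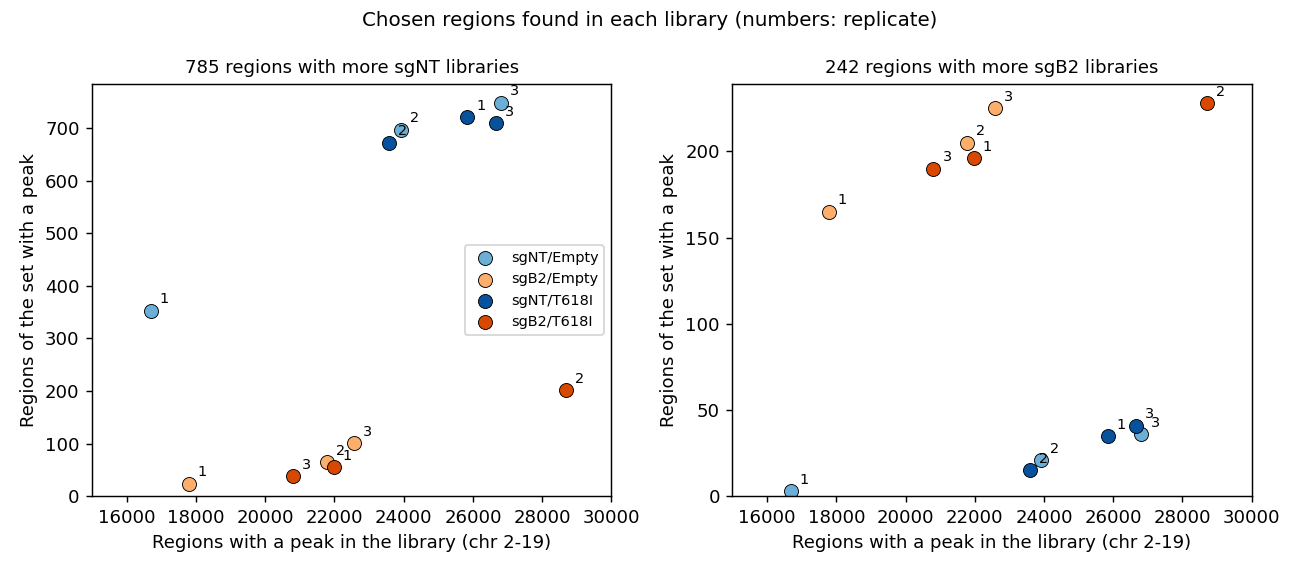
Each point is 1 library, with its replicate number; the horizontal axis gives the regions with a peak in that library on chromosomes 2 to 19, and the vertical axis the members (left) or the regions of the mirrored set (right) with a peak. The 6 sgNT libraries hold 353 to 748 members and the 6 sgB2 libraries 24 to 201, and within each guide the library with the shortest list is lowest in both panels.

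Leaving out 1 library changed the number of regions that fulfil the rule by more than 1.5 times in 6 cases: it was 430 without sgNT/Empty replicate 2, 374 without sgNT/Empty replicate 3, 411, 466 and 414 without sgNT/T618I replicates 1, 2 and 3, and 513 without sgB2/Empty replicate 1. With 5 libraries on one side, fewer patterns reach the same difference in shares. Over the libraries themselves, the number of peaks was 24082 ± 3807 for sgNT and 22468 ± 3596 for sgB2 (SD, n = 6 each; exact permutation test within vectors, two-sided, p = 0.445). Covered bases were 13.6 ± 2.64 Mb and 11.7 ± 2.42 Mb (exact permutation p = 0.18, adjusted 0.27). The median peak was 476 ± 32.2 bp wide in sgNT and 437 ± 24.4 bp in sgB2 (exact permutation p = 0.025, adjusted 0.075 over these 3 comparisons, smallest possible p 0.005). None of the 3 differences passed after adjustment. The part of peak width in the count of members was not tested, and the counts from lists of equal length stand above.

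The members were weak peaks. Peaks were ranked within their own list by the authors' −log10 p, so that the strongest has percentile 100, and the median over the members was the percentile 25.4. This was close to the 26.7 of the 7561 other regions with a peak in 4 to 8 libraries and to the 28.5 of the mirrored set, and far below the 71.6 of the 12191 regions with a peak in all 12 libraries. Members found in 6 sgNT and 0 sgB2 libraries had a median of 30.5, with a range from 7.90 to 66.4. The authors' fold over background of member peaks had a median of 3.37 to 3.97 in the 12 libraries, where all peaks had medians of 4.26 to 5.10. In the sgB2 libraries the few member peaks had a median percentile of 22.1, against 26.4 in the sgNT libraries.

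The merged members were 549 bp wide at the median, with quartiles of 410 and 762 bp, against 438.5 bp for the mirrored set, 502 bp for the other regions in 4 to 8 libraries and 879 bp for those in all 12. A merged region grows with the number of peaks merged, so widths of sets with different numbers of libraries are not on an equal footing. Of the members, 106 (13.5%) lay within 1 kb of an end of a protein-coding gene, 372 (47.4%) deeper inside a gene and 307 (39.1%) outside genes. The share near gene ends was 13.6% in the mirrored set, 10.1% in the other regions in 4 to 8 libraries and 58.0% in the regions found in all 12 libraries. Among members with 6 sgNT and 0 sgB2 libraries it was 23.2%. In place and strength the members were thus like other regions found in only part of the libraries.

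**Figure D3:**
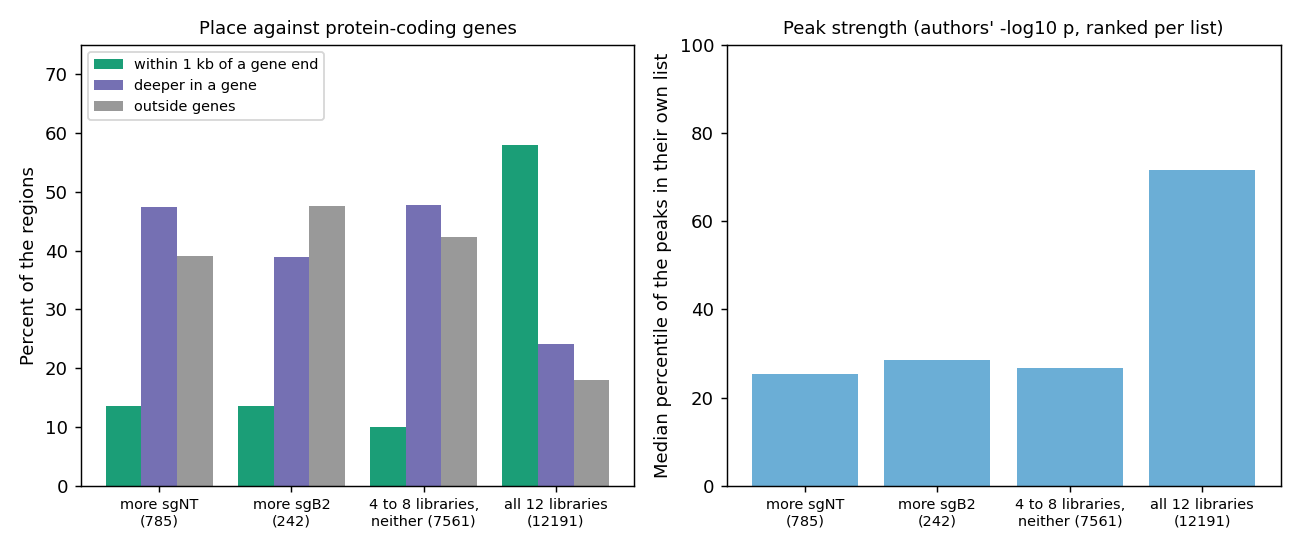
Left, percent of regions by place against protein-coding genes for the members, the mirrored set, the other regions with a peak in 4 to 8 libraries and the regions in all 12 libraries; right, the median percentile of their peaks within their own list. The first 3 sets have 10.1 to 13.6% of their regions near a gene end and median percentiles of 25.4 to 28.5, while the regions in all 12 libraries have 58.0% and 71.6.

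Every autosome examined held members. They made up between 1.86% of the regions in 4 or more libraries on chromosome 11 (40 members) and 4.04% on chromosome 6 (57 members), and on each of the 18 chromosomes they outnumbered the mirrored regions. Outside the members, chromosomes 1 and X went apart in opposite directions under the same rule. On chromosome 1, of 2168 regions in 4 or more libraries, 14 (0.646%) had more sgNT and 97 (4.47%) more sgB2 libraries. On chromosome X, of 614 such regions, 52 (8.47%) had more sgNT and 3 (0.489%) more sgB2 libraries. Of the 785 members, 129 had another member within 50 kb, and of the 242 mirrored regions 9 had another mirrored region. A larger set has more such neighbours by number alone, and how many to await for the members was not tested. The 2366 non-member regions within 50 kb of a member had a mean of 0.359 more sgNT than sgB2 libraries. This mean was 0.204 for the 466 regions within 50 kb of a mirrored region and 0.194 over all 24727 non-members in 4 or more libraries.

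In the order along the chromosomes of regions with a peak in 4 or more libraries, 701 members had no member next to them, 37 pairs and 2 triples of members adjoined, and there was 1 run of 4. The run of 4 spanned 370 kb, chr13:110538154-110907869, between Plk2, a polo-like kinase gene, and the actin-like gene Actbl2, and its members lay 137 to 351 kb from the nearer gene. The member at chr13:110568410-110569371 was covered over 287, 735 and 413 bp in sgNT/Empty and 735, 671 and 939 bp in sgNT/T618I, and over 284 bp in sgB2/Empty replicate 1 and 0 bp in the other sgB2 libraries. Between the flanking regions found in all 12 libraries, which are 1094 kb apart, there were 12 regions, of which 10 had a peak in at least 1 sgNT library and 5 in at least 1 sgB2 library. Over these 12 regions the peaks in sgNT libraries added up to 31 and those in sgB2 libraries to 5. The flanking regions, at the gene ends of Plk2 and Gpbp1, had peaks under both guides. One triple spanned 220 kb over Tacc2, Btbd16 and Plekha1 on chromosome 7, and another 22.8 kb at Atoh8 and Sftpb on chromosome 6.

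**Figure D4:**
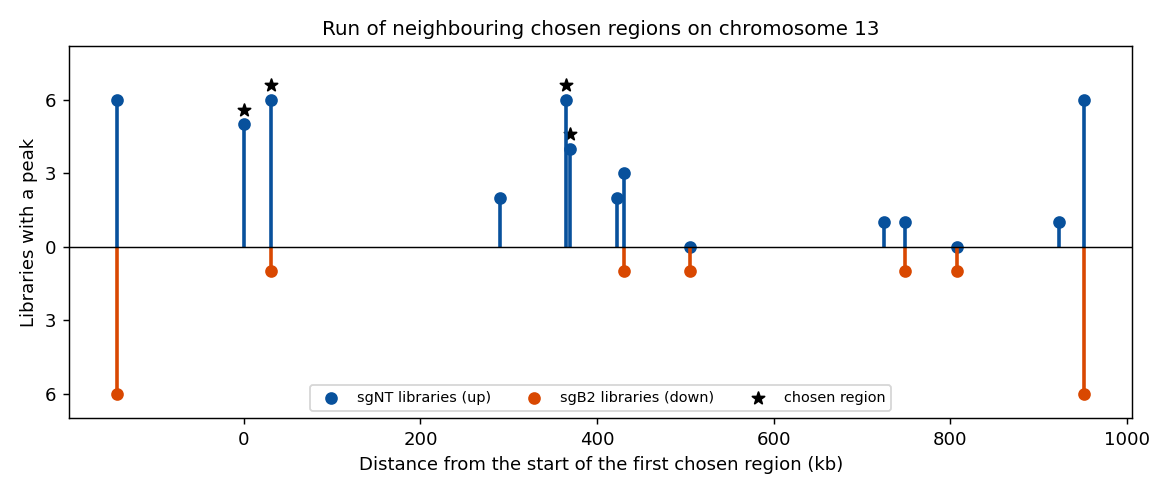
The run of 4 neighbouring members on chromosome 13 with every merged region between the nearest regions found in all 12 libraries; the horizontal axis is the distance from the start of the first member in kb, and lines give the libraries with a peak, sgNT upward and sgB2 downward. The starred members have 4 to 6 sgNT libraries and 0 or 1 sgB2 library, while both flanking regions have 6 and 6.

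The members' nearest protein-coding genes numbered 713, and 63 genes had 2 or more members, which together took 135. Mtss1, a gene for an actin- and membrane-binding scaffold, had 4 members between 59017632 and 59146154 on chromosome 15, with 4.75 sgNT and 0.25 sgB2 libraries on average, and 4 other regions in 4 or more libraries. The 7 genes with 3 members were Lpp and Bfsp1, Pde4d, which encodes a cyclic AMP phosphodiesterase, Pik3ap1, an adaptor of phosphoinositide kinase signalling, Tmem170b, Zfp386 and Zfp516. Both members of Amotl2 had a peak in 6 sgNT and 0 sgB2 libraries; the second, 13.2 kb beyond the gene, was covered over 416, 1169 and 753 bp in sgNT/Empty and 498, 348 and 362 bp in sgNT/T618I. Some of these genes were nearest to many regions: Pde4d to 24 other regions and Zfp386 to 48. The Zfp386 members lay outside that gene, between 114914387 and 115952927 on chromosome 12, where the gene spans 116047714 to 116063231. Its name thus only marks the place.

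Members were ordered by the difference in libraries and then by the mean percentile of their peaks in the sgNT libraries. The first 24, at most 1 per gene, all had a peak in 6 sgNT and 0 sgB2 libraries; 5 lay within 1 kb of a gene end, 11 deeper in a gene and 8 outside genes. The strongest of these 24, though not of all members, lay inside Ppp1r9a, the gene of the actin-binding scaffold neurabin, at chr6:4973034-4973668. It was covered over 215, 253 and 462 bp in sgNT/Empty and 562, 202 and 186 bp in sgNT/T618I, with a mean percentile of 66.4. The second was the member at chr13:110903129-110903553 in the run near Actbl2, covered over 238, 363 and 262 bp in sgNT/Empty and 419, 331 and 310 bp in sgNT/T618I. All sgNT libraries carried these 2 peaks, and neither vector was consistently the wider.

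Zfp57 encodes a zinc finger protein that keeps DNA methylation at imprinted genes. The member near its end, chr17:37009421-37009934, was covered over 366, 255 and 367 bp in sgNT/Empty and 421, 375 and 274 bp in sgNT/T618I. The member inside Mylk, the myosin light chain kinase gene, at chr16:34986484-34986748, had the most even coverage of the first 10, with 194, 237 and 227 bp in sgNT/Empty and 250, 264 and 255 bp in sgNT/T618I. Cpa4 encodes a carboxypeptidase, and its member at chr6:30586857-30587353 was covered over 295, 296 and 389 bp in sgNT/Empty and 228, 242 and 369 bp in sgNT/T618I. The Pebp4 member at chr14:70054220-70054568 was covered over 189, 275 and 276 bp in sgNT/Empty and 251, 274 and 280 bp in sgNT/T618I. In each of these 4 regions the widest of the 6 sgNT libraries was less than 2 times the narrowest.

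The Mgarp promoter member, chr3:51396181-51397051, was covered over 374, 505 and 552 bp in sgNT/Empty and 534, 362 and 871 bp in sgNT/T618I. Cacnb4 encodes a calcium channel subunit, and its member at chr2:52601708-52602601 was covered over 199, 215 and 266 bp in sgNT/Empty and 252, 229 and 894 bp in sgNT/T618I. The Ccdc148 and Pkp4 promoter member, chr2:59160615-59162060, was covered over 193, 1446 and 1190 bp in sgNT/Empty and 1170, 294 and 261 bp in sgNT/T618I. In Cacnb4 a single library was wide, and at Ccdc148 and Pkp4 3 libraries were wide and 3 narrow, with both vectors in each set. Arap2 encodes a GTPase-activating protein for Arf proteins, and its member at chr5:62677436-62677879 was covered over 176, 410 and 426 bp in sgNT/Empty and 404, 327 and 222 bp in sgNT/T618I.

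The other 14 named members lay at or near Fgfbp1, AU041133, Bank1, Perp, Amotl2, Usp46, Nav2, Trim67, Tmem170b, BC107364, Nedd4l, Prag1, Spen and Themis, with mean percentiles from 43.0 down to 32.0. Spen encodes a transcriptional repressor, Nedd4l and Usp46 a ubiquitin ligase and a deubiquitinase, Bank1 a scaffold of B cell receptor signalling and Themis a protein of T cell selection. The Spen member was covered over 201 to 1165 bp (median 676 bp) and the Themis member over 200 to 910 bp (median 586 bp) in the 6 sgNT libraries. Of the 24, 8 lay outside genes, the Actbl2 one 351 kb away, so the nearest gene is a name for the place and not a target.

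**Figure D5:**
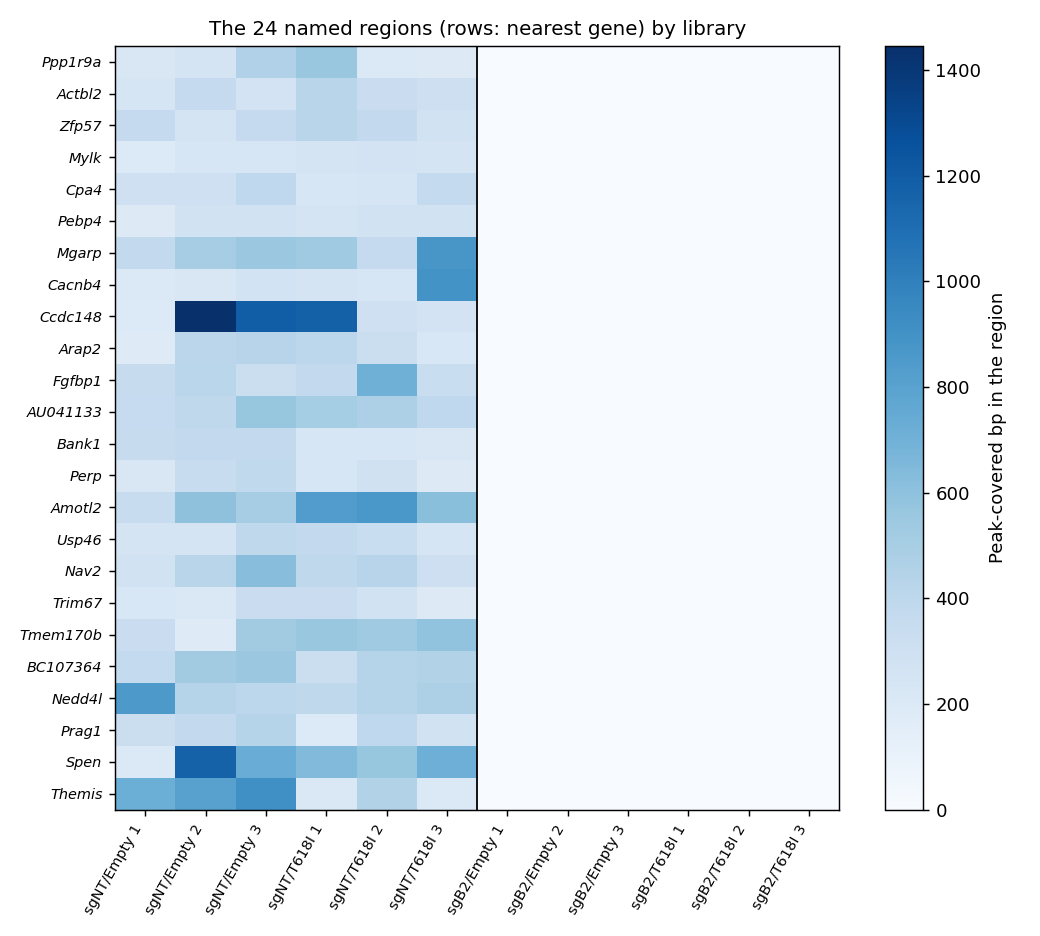
Peak-covered bases in each of the 24 named members (rows, by nearest gene) in each library (columns, sgNT left and sgB2 right of the line). All 6 sgNT columns are above 0 in every row, from 176 bp upward, and all 6 sgB2 columns are at 0.

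The 15 gene lists, of 275 genes for myeloid differentiation, other lineages and signalling, had 759 regions in 4 or more libraries, of which 21 were members, near 20 genes. Shares ran from 0 in 5 lists to 10.0% in the lymphoid list, which had 1 member, at Pax5, in 10 regions, beside the 3.08% of all such regions. Among myeloid transcription factors 4 of 132 regions (3.03%) were members, at Fli1, Runx2 and, with 2, Erg. Fli1 and Erg encode ETS factors of blood stem and progenitor cells. The Fli1 member was covered over 337, 286 and 247 bp in sgNT/Empty and 225, 194 and 195 bp in sgNT/T618I, and over 0 bp in every sgB2 library. The member near an end of Erg was covered over 285 and 325 bp in sgNT/Empty replicates 2 and 3 and over 241, 282 and 269 bp in sgNT/T618I, and had no peak in the remaining 7 libraries. The Runx2 member had no peak in sgNT/Empty replicates 1 and 2, 190 bp in replicate 3 and 522, 506 and 195 bp in sgNT/T618I. These members were found under the control guide with both vectors, the Runx2 one mainly with T618I.

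Bcl11a, a repressor of stem, lymphoid and erythroid cells, gave the only member of 51 regions of the stem and progenitor list (1.96%); it was covered over 758, 778 and 1534 bp in sgNT/Empty and 802, 723 and 721 bp in sgNT/T618I, and over 0 bp in sgB2. Members also lay in Csf1r, the macrophage colony-stimulating factor receptor gene (5 sgNT and 0 sgB2 libraries), in Pax5, a B cell factor (4 and 0), and 7.05 kb from Serpinb1a, a protease inhibitor gene of neutrophils (6 and 2). The lists of mature neutrophil genes (48 regions), secondary and tertiary granule genes (28), erythroid and megakaryocyte genes (14), mast cell, basophil and eosinophil genes (16) and adhesion and migration genes (68) held 0 members. At 3.08% each list of such a size would by itself hold few or none, so nothing particular to any of them is read from this. The lists were not tested together.

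For the JAK-STAT pathway and its targets 3 of 83 regions (3.61%) were members. The one 22.4 kb from Socs2, a feedback inhibitor of cytokine receptors, was covered over 456, 243 and 201 bp in sgNT/Empty and 228, 186 and 232 bp in sgNT/T618I and over 0 bp in sgB2. Bcl6, a transcriptional repressor, had a member in 6 sgNT libraries and in sgB2/Empty replicates 2 and 3, where it was covered over 297 and 250 bp. The member inside Jak1, the cytokine receptor kinase gene, was found in 5 sgNT libraries and in sgB2/Empty replicate 3. In the NF-kB and AP-1 inflammatory list it was 4 of 89 regions (4.49%), near Nfkbiz, Fos, Fosl2 and Jun. The member 12.1 kb from Fos was absent from sgNT/Empty replicates 1 and 2 and covered over 354 bp in replicate 3 and 853, 1023 and 349 bp in sgNT/T618I. The Jun member lay 196 kb from the gene.

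The Polycomb and ASXL-BAP1 list had 2 members in 63 regions (3.17%). The one inside Foxk1, a forkhead factor that binds BAP1, was covered over 230, 0 and 321 bp in sgNT/Empty and 245, 333 and 279 bp in sgNT/T618I. The other lay 198 kb from Jarid2, a Polycomb cofactor. Growth factor and TGF-beta signalling genes had 3 members in 73 regions (4.11%), near Igf1r, Tgfbr2 and Smad6. Asxl1 itself, chr2:153345830-153404007, had 7 regions and 0 members; the largest difference there was 2 libraries, and 2 of its regions had a peak in all 12. Csf3r had 11 regions, 0 members, the same largest difference and also 2 regions in all 12. Peaks do not show whether the guide edited the gene, so they are no check of the labels.

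As a check of the cell type, 8 of 10 granulocyte and monocyte progenitor markers had a peak at the gene in all 12 libraries, while Prtn3 had one in 10 and Elane in 1. Cd3e, Cd4, Hbb-bt, Ms4a2, Epcam, Krt8 and Col3a1 had none in any library. An open site is not expression, and Ebf1, Lck, Klf1, Itga2b, Mcpt8, Cdh1 and Col1a1 had peaks in all 12 libraries.

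Across the 64 genes with a promoter window at a member, 7 (10.9%) had the PU.1 motif GAGGAAGT on either strand: Gsto2, Selenop, Hnrnpf, Tagap, Ffar4, Hrh2 and Cyp4v3. The motif was present in 542 of all 15344 protein-coding genes with a window on these chromosomes (3.53%), in 222 of 6702 genes (3.31%) with a region in all 12 libraries, in 17 of 367 (4.63%) with another region in 4 to 8 libraries and in 0 of 22 in the mirrored set. PU.1 is the ETS factor that directs myeloid differentiation. The other motifs searched on both strands were CCGGAAGT for ETS factors (4.69% of member genes, 5.91% of all), TTGCNNAA for C/EBP (6.25 and 11.8%), TGANTCA for AP-1 (7.81 and 8.17%), TGTGGT for RUNX (15 of 64 member genes and 2615 of all), AGATAA for GATA (9.38 and 11.1%), GGGCGG for SP and KLF factors (64.1 and 50.5%), CCAAT for NF-Y (35.9 and 42.2%) and the NRF1 motif (0 and 1.53%). The first 2 motifs share the letters GGAAGT. Only the PU.1 share stood at more than 1.5 times that of all genes, on 7 genes and with no test; a match is not a bound site. The 75 member windows had a median GC content of 61.7% and 16 CpG, against 57.0% and 14 over all windows and 62.7% and 24 at regions in all 12 libraries.

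The rule did not use the vector, but it limits how far a member can differ by vector: with at least 4 of 6 sgNT libraries, none can be present with one vector and absent with the other in sgNT cells. A difference of at least 4 libraries between vectors, counted over both guides, held for 1914 regions (7.5% of those in 4 or more libraries) with more T618I and 417 (1.63%) with more Empty libraries. By library counts 336 members had more sgNT/T618I than sgNT/Empty libraries, 95 fewer and 354 as many. The mean was 2.29 of 3 libraries in sgNT/Empty and 2.68 in sgNT/T618I, with 0.242 in sgB2/Empty and 0.376 in sgB2/T618I; the short first sgNT/Empty list enters these means. The guide difference was 3 of 3 against 0 of 3 libraries in 188 members within the empty vector and in 321 within T618I.

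The covered bases of each region, scaled to the same total in each library, were compared between vectors by limma on log2(bp + 100) over 33117 regions with a peak in at least 2 libraries. Over both guides 1489 regions (4.5%) rose with T618I and 441 (1.33%) fell at a Benjamini-Hochberg adjusted p under 0.05; of the members 0 rose and 1 fell. The rule puts most sgB2 values of the members at 0 bp, and 412 members have no sgB2 peak at all, so their counts over both guides are not read against these shares. In sgNT cells alone 497 regions (1.5%) rose and 96 (0.29%) fell, and 0 members rose and 1 fell. The number of members that passed in sgNT cells rested on the settings: it was 0 with 25 bp added, with all regions tested, with regions in at least 4 libraries and with a replicate block, 22 with stricter peaks, 34 with equal-length lists and 60 without sgNT/Empty replicate 3. Without sgB2/Empty replicate 3, and without sgB2/T618I replicate 1 or 3, it was 0 as well. At an unadjusted limma p under 0.05, 125 members (15.9%) and 4330 of all regions tested (13.1%) differed in sgNT cells. Over both guides 50 members (6.37%) and 6548 regions (19.8%) differed. The fit estimates 1 spread per region from all 12 libraries, so the sgB2 values at 0 bp enter both comparisons. For this reason the shares of members are not compared with those of all regions in either. The median log2 difference in sgNT cells was 0.10 for the members and -0.01 for all regions tested.

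The member that fell lay inside Bfsp1, a gene for a lens filament protein, at chr2:143873368-143874751. It was covered over 1162, 1274 and 1368 bp in sgNT/Empty, 436, 214 and 251 bp in sgNT/T618I, 0, 218 and 207 bp in sgB2/Empty and 0 bp in all 3 sgB2/T618I libraries. The sgNT groups did not overlap. By limma its log2 difference was -1.61 ± 0.33 (SE; adjusted p = 0.0174) over both guides and -2.05 ± 0.46 (adjusted p = 0.0466) in sgNT cells; with equal-length lists it was -0.65 (adjusted p = 0.62) over both guides, and with stricter peaks it was 0. In sgNT cells its call ended with 25 bp added, with all regions tested, with regions in at least 4 libraries and with a replicate block, where no member passed. It ended too without sgB2/Empty replicate 3 and without sgB2/T618I replicate 1 or 3. These libraries lie outside that contrast and enter only its estimate of the spread. The other 2 Bfsp1 members did not pass in either comparison. The member in Zbtb7b, which encodes a zinc finger factor of T cell development, came next in order of limma's adjusted p over both guides. Its log2 difference by limma was 1.68 ± 0.47 (SE, adjusted p = 0.0612) over both guides and 1.65 ± 0.67 (adjusted p = 0.293) in sgNT cells. Its scaled means were 351 ± 120 bp in sgNT/Empty and 1359 ± 544 bp in sgNT/T618I (SD, n = 3 each). They were 0 bp in sgB2/Empty and 408 ± 525 bp in sgB2/T618I.

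At the threshold, the 3 strongest members with a difference of 4 lay near Tle3 (6 sgNT and 2 sgB2 libraries), Plcb1 (4 and 0) and Kmt2e (6 and 2), and the 3 strongest regions just outside, with a difference of 3, near Tnf, Tmem131l and Pdss2 (6 and 3 each). The Tle3 member was covered over 189 to 257 bp in the 6 sgNT libraries and over 179 and 208 bp in its 2 sgB2 libraries. The Tnf region was covered over 186 to 576 bp in sgNT and over 309, 212 and 1552 bp in its 3 sgB2 libraries. Strong peaks such as these stood on both sides of the threshold.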

How the data were processed

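The data were 12 MACS2 broad peak lists, 1 per ATAC-seq library, on mm10. Per the submitters' processing notes, BWA 0.7.17, SAMtools 1.9, bedtools 2.30, MACS2 2.2.7.1 and deepTools 3.5 were used; parameters are not given in the sources used here. Each list is of 1 library, and the authors deposited for each peak a score (not used), a fold ratio over background, used only as a description, and −log10 p and −log10 q, which served for ranks and filters inside a list. Reads and depth were not analysed here, so longer lists may come from deeper libraries. Groups, guide, vector and time were taken per the labels.

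Peaks on chromosomes 2 to 19 were merged at 1 bp overlap (python 3.11.15, pandas 2.3.3, numpy 2.4.6, matplotlib 3.10.9). Covered bases of each library in a region, scaled to an equal total and after adding 100 bp, were compared between vectors with limma 3.58.1 in R 4.3.3 (trend, group means, Benjamini-Hochberg over all 33117 regions in at least 2 libraries). In simulated data it found 42 and 72 of 100 planted changes of 1 and 2 on the log2 scale over both guides, and 17 and 50 in sgNT cells. The simulated noise was normal around a single mean per region, and the regions of lowest mean received no planted change. No simulated guide lacked coverage as sgB2 does in most members, so these counts do not describe what the fit finds among members. Library totals were compared by exact permutation over 400 arrangements within vectors. Genes, with the nearest protein-coding gene as a name, and promoter windows came from RefSeq GRCm38.p6; of the 713 nearest genes 553 had a window, and sequence elsewhere was not used here.

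The members and the gene lists were chosen with earlier results of these data known. The named members are the first 24 by difference in libraries and then mean percentile in sgNT, at most 1 per gene, with their values for the first 10, plus up to 4 per gene list, Asxl1 and Csf3r, and 3 on each side of the threshold; other genes named with several members, in runs, with promoter windows or passing the fit were chosen after their values were seen. Alternatives were stricter or equal-length lists, other merging, thresholds, added bases, filters, scaling and trend, a replicate block and leaving out each library.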

Additional observations from a re-analysis of the deposited data

Results flagged for a closer look

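The first sgNT/Empty library lay far below the other 5 sgNT libraries in 3 measures, each by a gap that is large against the range of the 6. It had a peak in 353 of the 785 members, where the next had 672; its list held 16837 peaks on chromosomes 2 to 19, where the next held 23690; and its peaks covered 8.44 Mb, where the next covered 13.1 Mb. The 3 measures come from 1 list and are not independent, the 6 libraries hold both vectors, and chance marks about 1 in 20 groups in this way. Its part in the members was not tested beyond the count without it, 958 against 785.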

How the results depend on the processing

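Merging peaks up to 100 bp apart left 785 members and 242 mirrored regions, and asking for peaks over 50% of a region gave 980 and 204. The counts were 529 and 147 with stricter peaks, 354 and 393 with equal-length lists, 219 and 74 at a difference of at least 5 libraries, and 2402 and 844 at 3. Without 1 library each they ranged from 374 to 958 and from 122 to 221; the mirrored count fell by more than 1.5 times without sgNT/Empty replicate 1 (159), sgB2/Empty replicates 2 (149) and 3 (127) and sgB2/T618I replicate 2 (122).

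For T618I against Empty over both guides and then in sgNT cells, regions that rose and fell were 827, 240, 206 and 33 with all regions tested, 380, 160, 211 and 52 with stricter peaks, and with equal-length lists 820 fell over both guides and 251 in sgNT cells. Those that fell in sgNT cells were 63 among regions in at least 4 libraries. Without the trend 770 rose and 151 fell in sgNT cells. Members that passed over both guides numbered 2 with 400 bp added, 22 with stricter peaks, 39 with equal-length lists and 4 without the trend; in sgNT cells they numbered 0 with 25 bp added, 7 with 400 bp, 0 with all regions or with regions in at least 4 libraries, 22 with stricter peaks, 34 with equal-length lists and 12 without the trend. The cause was not tested. Without 1 library each, over both guides 792 to 1884 regions rose, 242 to 981 fell and 1 to 23 members passed; in sgNT cells 244 to 696 rose, 80 to 563 fell and 0 to 60 members passed. The highest member counts, 23 and 60, came without sgNT/Empty replicate 3, and the highest counts of falls, 981 and 563, without sgNT/Empty replicate 1. The Bfsp1 difference was 0 with stricter peaks.

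Same-numbered libraries did not deviate together more than others. Correlations ran from -0.09 to 0.12 in their 18 pairs and from -0.17 to 0.15 in the 36 pairs with different numbers. The labels do not say whether libraries with the same number were made together, and these correlations cannot settle it. With the replicate number as a block, 811 regions rose and 234 fell over both guides with 1 member passing, and 245 rose and 52 fell in sgNT cells with 0 members passing. Peak lists carry no depth, and a weak peak missed in a shallow library cannot be told apart from a closed site.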
